A study of Mus musculus with 9 samples.

Results

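Complement genes other than C1q were followed in RNA from whole mouse retina: the central components C3 and C4b, the fluid-phase regulators Cfi, Serping1 and Clu, and the membrane regulators Cd59a and Cd55. These 7 genes were picked by symbol among the 35397 genes of the deposited expression table, through their Ensembl identifiers. The db/db group, mice homozygous for a leptin receptor mutation that makes them obese and diabetic, gave 4 libraries (db/db 1, 3, 4 and 5), and the wild-type group gave 5 (wild type 1 to 5). No agent was given to either group, per the labels, which state neither age, sex nor strain background, nor if 1 animal gave 1 library. The p-values below therefore measure the spread between these libraries. Setting db/db against wild type asks how expression differs in the diabetic retina.

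Complement is a cascade of plasma and tissue proteins that marks surfaces for removal and can end in a pore, the membrane attack complex. C1q or lectins bind a target and start the cleavage of C4 and C2, and all routes meet at C3, whose fragment C3b settles on the surface. Host cells hold the cascade in check with secreted inhibitors and with inhibitors anchored in their own membranes. Retinal neurons, glia and pigment epithelium make several of these proteins themselves, behind the blood-retinal barrier.

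With all 9 libraries none of the complement genes passed the test, and Cd59a, the membrane inhibitor of pore formation, had the lowest adjusted p among them. Cd59a was lower than every wild-type library in db/db 3, 4 and 5, and higher than every wild-type library in db/db 1. Without db/db 1 it fell to 19.1 ± 2.54 FPKM in db/db (SD, n = 3), against 27.1 ± 1.05 FPKM in wild type (SD, n = 5), a ratio of 0.703. FPKM counts sequenced fragments scaled to exon length and to library depth, so that levels of different genes can be set side by side. The values of C3, C4b, Cfi, Serping1, Cd55 and Clu overlapped between the groups, with and without db/db 1. Of the 14588 genes tested, 11.6% did not overlap with all 9 libraries, and 21.1% did not without db/db 1. In 11.5% of them db/db 3, 4 and 5 lay below every wild-type library, as for Cd59a.

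The recovered depth was 36.6 M reads in db/db 5 to 47.9 M in wild type 1, and the 14588 genes whose mean reached 1 FPKM were tested on log2(FPKM + 1) with limma. Db/db 1 stood apart: its summed markers of pigment epithelium came to 470 FPKM, against 140 to 263 FPKM in the other db/db libraries and 177 to 253 FPKM in wild type. Its 10 blood cell markers summed to 73.0 FPKM, against 21.97 to 24.3 FPKM in the other db/db libraries and 15.6 to 26.8 FPKM in wild type. The 8 rod markers, which define the tissue, summed to between 11295 and 12971 FPKM in db/db and between 11026 and 11847 FPKM in wild type. Lepr, the gene mutated in db/db, was read at 0.0308 to 0.0689 FPKM in db/db and 0.0264 to 0.0467 FPKM in wild type, and a gene total does not show the splice mutation. Many changes are therefore given with and without db/db 1, and a change printed without such a mark is from all 9 libraries.

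Levels of the 7 genes spanned more than the differences between the groups. Clu averaged 179 ± 39.0 FPKM in db/db (SD, n = 4) and 159 ± 14.9 FPKM in wild type (SD, n = 5), and it made up 80.3% to 87.3% of the summed FPKM of the 7 genes in each library. Below it came Cd59a, Serping1, C4b, C3, Cfi and Cd55, and each gene lay above the next in 9 of 9 libraries. The ranges over the 9 libraries overlapped for 3 neighbouring pairs, Serping1 with C4b, C4b with C3, and C3 with Cfi. Clu, Cd59a, Serping1 and C4b reached the filter of 1 FPKM. C3, Cfi and Cd55 did not, and their changes come from the same fit without a filter, over 35397 genes.

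**Figure D1:**
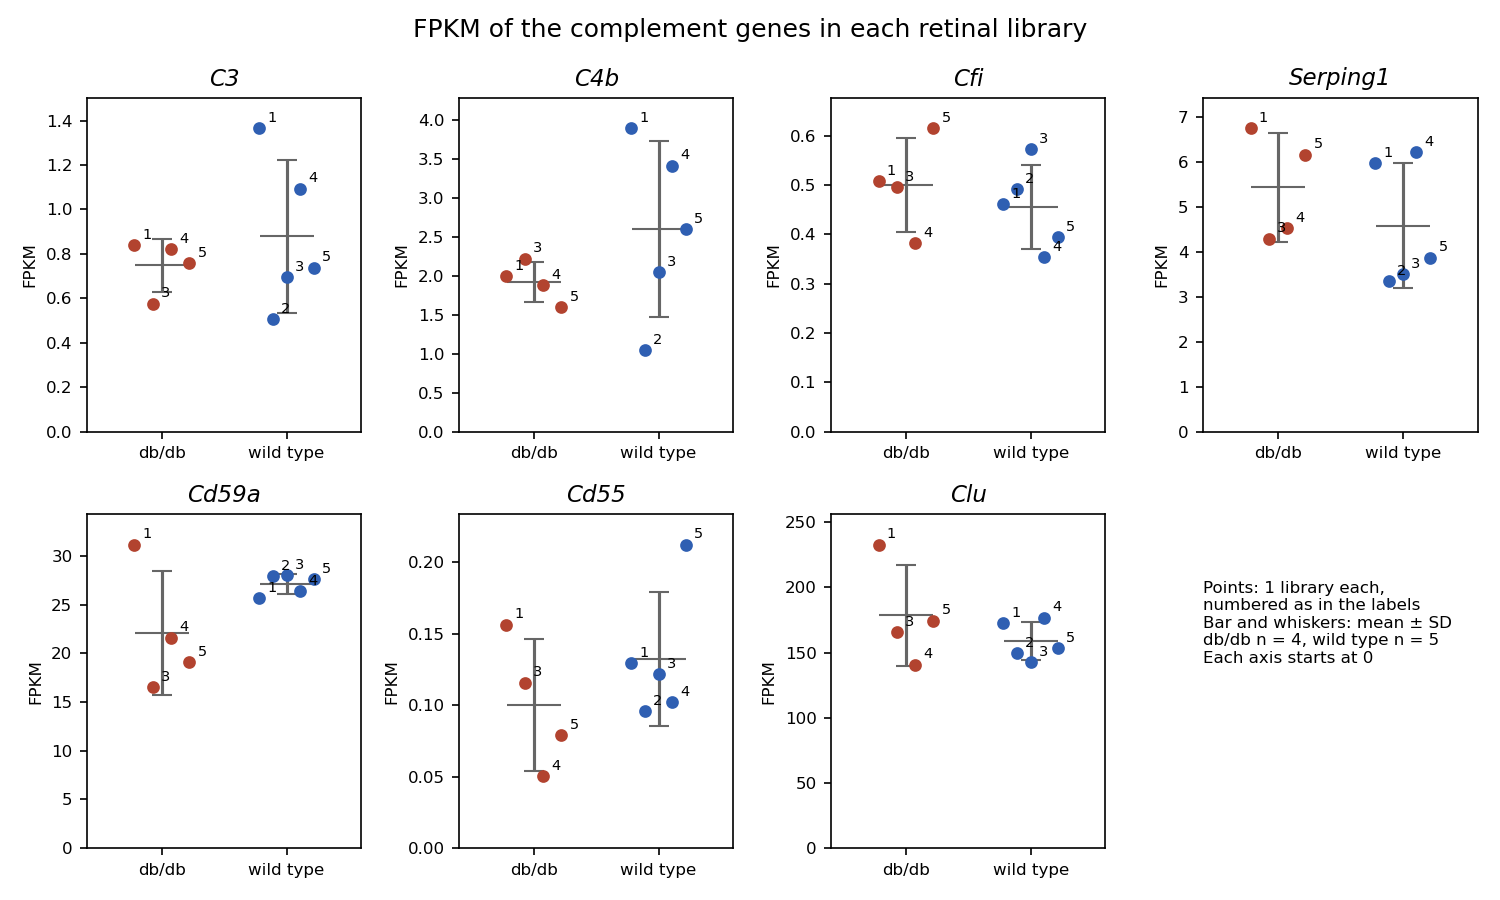
FPKM (linear axes from 0) of the 7 complement genes in each library, db/db (red) to the left of wild type (blue), with the mean ± SD of each group. In Cd59a the db/db libraries 3, 4 and 5 sit between 16.5 and 21.6 FPKM and db/db 1 at 31.2 FPKM, on either side of the wild-type libraries at 25.7 to 28.1 FPKM; in the other 6 genes the groups overlap.

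C3 (ENSMUSG00000024164, chr17:57203970-57228136, minus strand, mm10) encodes the component on which all activation routes converge. It stood at 0.839, 0.577, 0.822 and 0.760 FPKM in db/db 1, 3, 4 and 5, against 1.37, 0.506, 0.695, 1.09 and 0.738 FPKM in wild type 1 to 5. All 4 db/db values lay inside the wild-type range, whose ends were set by wild type 1 and wild type 2. The log2 change was -0.09 (SE 0.13, 95% interval -0.39 to 0.22, limma adjusted p = 0.792 without a filter), and -0.11 (adjusted p = 0.747) without db/db 1. These values rest on 132 to 199 reads in db/db and 112 to 336 in wild type.

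C4b (ENSMUSG00000073418, chr17:34728380-34743882, minus strand), the mouse gene for the C4 of the classical and lectin routes, showed 2.0, 2.22, 1.88 and 1.6 FPKM in db/db 1, 3, 4 and 5. Its wild-type values were 3.89, 1.05, 2.04, 3.41 and 2.60 FPKM in wild type 1 to 5. Again the db/db libraries lay close together and inside the wild-type range. The means were 1.92 ± 0.258 FPKM in db/db (SD, n = 4) and 2.60 ± 1.12 FPKM in wild type (SD, n = 5). The log2 change of -0.24 (SE 0.23, adjusted p = 0.573, 95% interval of the fold 0.596 to 1.2) did not pass, nor did -0.25 (adjusted p = 0.526) without db/db 1. Over 26 alternatives its log2 change ran from -0.53 to -0.11, with an adjusted p between 0.258 and 0.802.

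C3 and C4b put the wild-type libraries in the same order, 1, 4, 5, 3 and 2 from high to low. The protease gene C1ra and Itgb2, the beta chain of complement receptors, followed that order too, at 0.187 to 0.547 FPKM and 0.213 to 0.534 FPKM in wild type. Both lay below the filter and were named after their order was seen. Cfi, Serping1, Cd59a, Cd55, Clu, C1qa, C4a and Vtn had other wild-type orders. How many of all genes share the order was not counted. In db/db the orders of C3 (1, 4, 5, 3), C4b (3, 1, 4, 5), C1ra (1, 5, 4, 3) and Itgb2 (5, 4, 1, 3) differed. Microglia are known makers of complement in the retina, and their 12 markers summed to 22.6, 22.9, 22.2 and 24.9 FPKM in db/db 1, 3, 4 and 5. In wild type 1 to 5 the sum was 29.96, 22.7, 26.9, 28.6 and 25.4 FPKM, highest in wild type 1 and lowest in wild type 2, as for C3 and C4b. The same was true of 4 of the 15 marker lists, with Muller glia (1469 and 1356 FPKM), astrocytes (20.4 and 13.3 FPKM), and pericytes and smooth muscle beside microglia. Of the 12 microglia markers 4 reached the filter and none was listed at 0 in all libraries. Their part in the C3 and C4b values was not tested, and in bulk RNA fewer cells of a type and less RNA per cell cannot be told apart.

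C4b has a close neighbour of 96.1% transcript identity, C4a, known as the gene of the sex-limited protein, which lies 65209 bases from it. The annotation used lists C4a as a processed transcript, so transcripts were compared in place of coding sequences. Of the 50-base windows in the C4b transcript with the longest coding sequence, 35.2% also occur in C4a. Reads of this pair are therefore uncertain where the authors' counting could split them. C4a stood at 0.718 ± 0.10 FPKM in db/db (SD, n = 4) and 0.756 ± 0.0881 FPKM in wild type (SD, n = 5). Its log2 change was -0.03 (adjusted p = 0.859 without a filter). The ratio of C4b to C4a was 2.74 ± 0.601 in db/db (SD, n = 4) and 3.46 ± 1.48 in wild type (SD, n = 5). It varied from 1.43 in wild type 2 to 5.09 in wild type 1, so the spread of C4b among wild-type libraries was not shared by C4a.

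Cfi (ENSMUSG00000058952, chr3:129835884-129875332, plus strand) encodes factor I, the protease that cleaves C3b and C4b with the help of cofactors. It was listed at 0.508, 0.496, 0.383 and 0.615 FPKM in db/db 1, 3, 4 and 5, against 0.461, 0.492, 0.573, 0.355 and 0.395 FPKM in wild type 1 to 5. The groups overlapped over most of their range. These values rest on 35 to 52 reads in db/db and 35 to 58 reads in wild type, and the log2 change was 0.04 (SE 0.06, adjusted p = 0.782 without a filter).

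Serping1 (ENSMUSG00000023224, chr2:84765387-84775444, minus strand) encodes C1 inhibitor, a serpin that blocks C1r, C1s and the lectin-route proteases. It was read at 6.74, 4.29, 4.52 and 6.16 FPKM in db/db 1, 3, 4 and 5, and at 5.97, 3.35, 3.5, 6.21 and 3.87 FPKM in wild type 1 to 5. Each group held a high and a low cluster, with db/db 1 and 5 and wild type 1 and 4 near 6 FPKM or above. The means of 5.43 ± 1.21 FPKM in db/db (SD, n = 4) and 4.58 ± 1.40 FPKM in wild type (SD, n = 5) differed by less than the SD of either group. The log2 change was 0.22 (SE 0.19, adjusted p = 0.538, 95% interval of the fold 0.868 to 1.56), and 0.12 (adjusted p = 0.699) without db/db 1. Its sign held over 26 alternatives, from 0.09 to 0.32, and it passed in 0 of them.

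Clu (ENSMUSG00000022037, chr14:65968483-65981547, plus strand) encodes clusterin, a secreted chaperone that also binds the forming membrane attack complex. It stood at 233, 166, 141 and 175 FPKM in db/db 1, 3, 4 and 5, and at 172, 150, 142, 177 and 153 FPKM in wild type 1 to 5. Only db/db 1 lay outside the wild-type range by more than 2 FPKM. The log2 change of 0.15 (SE 0.14, adjusted p = 0.568, 95% interval of the fold 0.897 to 1.37) came down to 0.01 (adjusted p = 0.941) without db/db 1. With the GC correction as well it was -0.06, the single change of sign among 27 alternatives. Vtn, which encodes vitronectin, another fluid-phase inhibitor of the pore, was highest in db/db 1 in the same way, at 407 FPKM there, 287 to 334 FPKM in the other db/db libraries and 283 to 324 FPKM in wild type. Summed Muller glia markers (12, all tested) also had their highest value in db/db 1, 1661 FPKM, against 1443 to 1541 FPKM in db/db 3, 4 and 5 and 1356 to 1469 FPKM in wild type. The markers did not move together. Rlbp1, Vim, Crym, Sox9 and Apoe (468 FPKM) were highest of the 9 libraries in db/db 1, and Slc1a3, Aqp4, Kcnj10, Dkk3 and Abca8a were lowest there. High sums were not limited to Muller glia: db/db 1 was the highest of the 9 libraries in 9 of the 15 marker lists. Ttr, at 275 FPKM in db/db 1, is on both the pigment epithelium and the liver-type plasma protein list. Db/db 1 was the lowest of the 9 for bipolar cells (253 FPKM) and amacrine cells (132 FPKM). Its FPKM over all genes summed to 311179, against 252832 to 264388 in the other db/db libraries and 263052 to 268139 in wild type. With columns scaled to equal sums the log2 change of Clu was 0.12 (adjusted p = 0.537). The part of any cell type in the Clu values was not tested.

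Cd55 (ENSMUSG00000026399, chr1:130439027-130462744, minus strand) encodes decay-accelerating factor, a membrane protein that takes apart the enzymes that cleave C3. It was barely read, at 0.156, 0.116, 0.0501 and 0.0788 FPKM in db/db 1, 3, 4 and 5 and at 0.129, 0.0958, 0.122, 0.102 and 0.212 FPKM in wild type 1 to 5. The groups overlapped, with db/db 4 and db/db 5 lowest and wild type 5 highest. The counts were 10 to 35 reads in db/db and 20 to 47 reads in wild type, and the log2 change was -0.04 (SE 0.04, adjusted p = 0.699 without a filter). The pseudocount of 1 understates changes at this level: the ratio of means was 0.758, and 0.616 without db/db 1. Its paralog Cd55b, 91.3% identical in coding sequence, was listed at 0 in 7 of 9 libraries, with 2 reads in db/db 3 and 1 read in db/db 5. The antisense gene Gm16083 shares 102 exonic bases with Cd55 and stood at no more than 0.0639 FPKM. No source used here gives a strand setting, and without it the reads of the pair cannot be told apart there.

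Cd59a (ENSMUSG00000032679, chr2:104095801-104115354, plus strand) encodes the lipid-anchored surface protein that keeps C9 from completing the pore, the last step at which a cell can stop the cascade. It was read at 31.2, 16.5, 21.6 and 19.1 FPKM in db/db 1, 3, 4 and 5, against 25.7, 28.0, 28.1, 26.4 and 27.6 FPKM in wild type 1 to 5. The wild-type libraries lay within a narrow band, and the db/db libraries fell on both sides of it. With all 9 libraries the means were 22.1 ± 6.39 FPKM in db/db (SD, n = 4) and 27.1 ± 1.05 FPKM in wild type (SD, n = 5), and the log2 change of -0.32 did not pass (SE 0.15, adjusted p = 0.276, 95% interval of the fold 0.635 to 1.01). The counts behind these values were 1268 to 2605 reads in db/db and 2123 to 2319 reads in wild type, so that counting error is small beside the spread in db/db.

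Without db/db 1 Cd59a passed, with a log2 change of -0.49 (SE 0.07, 95% interval -0.66 to -0.32, adjusted p = 0.0127; lower in 3 of 3 db/db libraries than in any wild-type library). In that fit 5.84% of all genes tested were called lower and 4.72% higher, and in 11.5% every db/db library lay below every wild-type library (21.1% did not overlap in either direction). Over 27 alternatives the log2 change ran from -0.58 to -0.20 and the adjusted p from 0.00421 to 0.71, and it passed in 6. Of these 6, 5 left out db/db 1, and the other used array weights, which give an outlying library less weight (adjusted p = 0.0139, with 4.5% of all genes called lower). Among those without db/db 1, limma-voom on recovered reads called 7.61% of all genes lower, the GC correction 2.34%, the fit without db/db 4 as well 1.74%, and the fit with no filter 0.516%. Without db/db 3 the change shrank to -0.20 (adjusted p = 0.433). The deviation of each library from the wild-type mean correlated across genes with transcript GC content by 0.18 to 0.50 in db/db and -0.12 to 0.13 in wild type, and the Cd59a transcript has 44.6% GC. With a correction for GC content the change without db/db 1 was -0.42 (adjusted p = 0.0345), and with all 9 libraries -0.25 (adjusted p = 0.480).

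**Figure D2:**
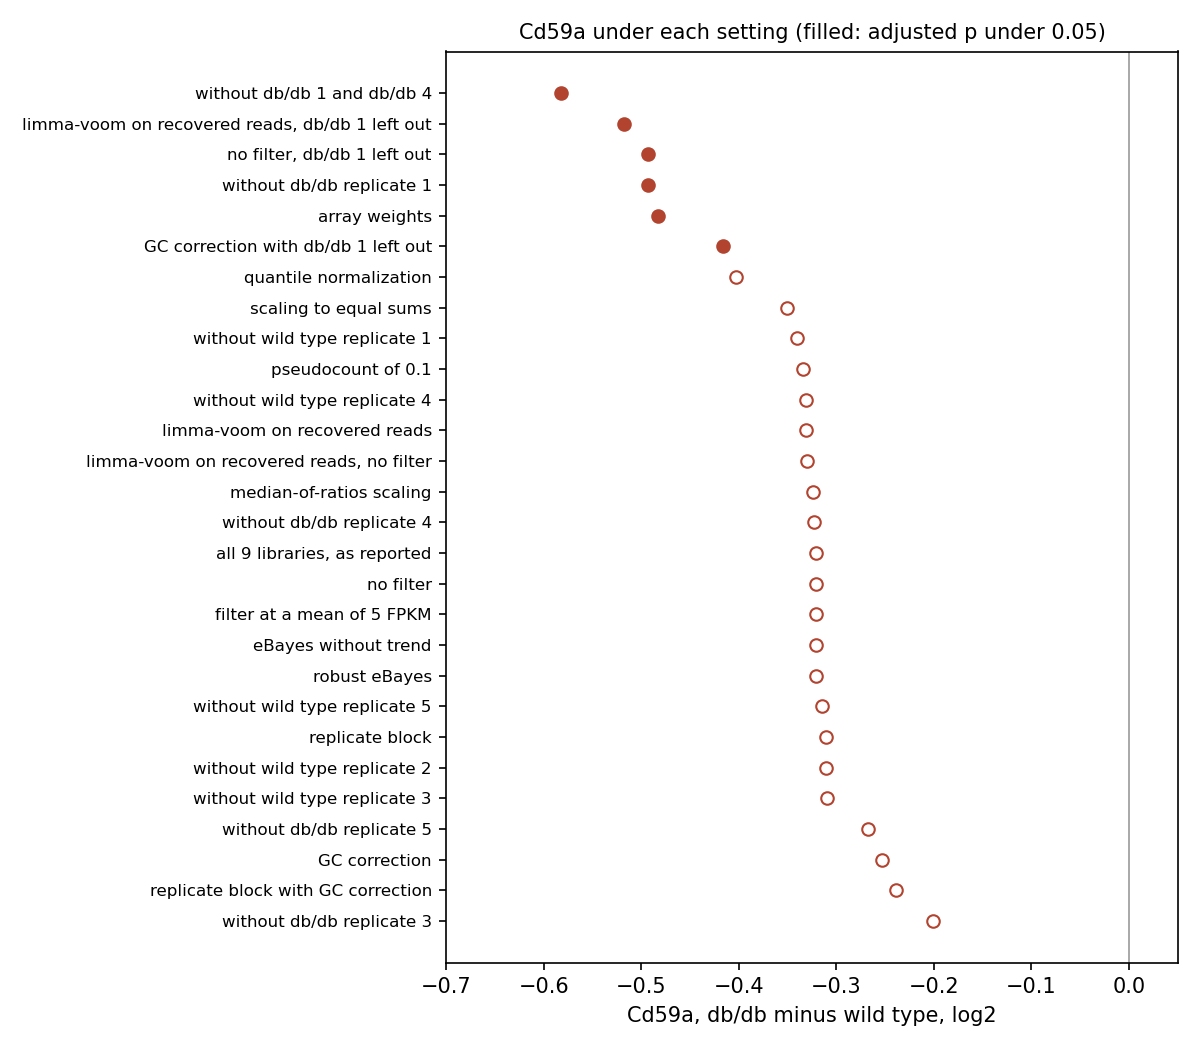
Log2 change of Cd59a, db/db minus wild type, under each setting (1 point a setting; filled points have an adjusted p under 0.05). Every point lies below 0, from -0.58 to -0.20, and the filled points are those without db/db 1 and the fit with array weights.

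Mice carry a pair of CD59 genes in tandem. Cd59b (ENSMUSG00000068686, chr2:104069849-104091187, plus strand), known for its level in testis, ends 4613 bases before Cd59a begins. The first 300 coding bases of each are given, read from the GENCODE M21 transcript sequences. They are shown because db/db 3, 4 and 5 lay below every wild-type library in both genes. Their likeness also bears on how reads were assigned. Lower case marks bases that are the same in the pair, and capitals mark bases that differ or have no partner in the alignment.
Cd59a: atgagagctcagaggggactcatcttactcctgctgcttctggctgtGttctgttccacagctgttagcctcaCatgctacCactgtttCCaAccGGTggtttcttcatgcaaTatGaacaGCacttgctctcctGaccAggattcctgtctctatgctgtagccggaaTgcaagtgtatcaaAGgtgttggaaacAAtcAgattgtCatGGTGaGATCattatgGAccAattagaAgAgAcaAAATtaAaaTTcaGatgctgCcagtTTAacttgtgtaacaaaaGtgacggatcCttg
Cd59b: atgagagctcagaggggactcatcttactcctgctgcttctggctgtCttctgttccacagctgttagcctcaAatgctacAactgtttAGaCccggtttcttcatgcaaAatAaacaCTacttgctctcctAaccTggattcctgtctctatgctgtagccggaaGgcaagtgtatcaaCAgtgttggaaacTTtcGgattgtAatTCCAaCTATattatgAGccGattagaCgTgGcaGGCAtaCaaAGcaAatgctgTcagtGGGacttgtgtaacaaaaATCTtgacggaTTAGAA
The whole coding sequences are 372 bases in Cd59a and 390 bases in Cd59b, and 303 of 357 aligned bases (84.9%) are identical. The opening stretch, which encodes the signal peptide, is nearly the same in the pair, and the differences grow denser beyond it. Of the 50-base windows in the Cd59a transcript 3.98% also occur in Cd59b, and 9.37% of those in Cd59b occur in Cd59a. Most reads of that length could thus be assigned to 1 gene of the pair.

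Cd59b was read at 1.30, 0.795, 0.804 and 0.715 FPKM in db/db 1, 3, 4 and 5, against 1.04, 1.31, 1.21, 1.13 and 1.03 FPKM in wild type 1 to 5. As for Cd59a, db/db 1 was high. The other db/db libraries lay below all 5 wild-type libraries, as they did in 11.5% of all genes tested. The log2 change was -0.18 (SE 0.10, adjusted p = 0.343) with all 9 libraries and -0.27 (SE 0.07, adjusted p = 0.0439) without db/db 1. This was the single setting of 26 in which Cd59b passed. The Cd59b mean was 0.904 FPKM in db/db and 1.14 FPKM in wild type, so it reached the filter of 1 FPKM through wild type, where it was higher. Corrected for GC content and without db/db 1 its adjusted p was 0.138, and with limma-voom on recovered reads and db/db 1 left out it was 0.0645. The ratio of Cd59a to Cd59b was 24.6 ± 2.87 in db/db (SD, n = 4) and 23.9 ± 2.0 in wild type (SD, n = 5), so the pair kept its proportion within the spread between libraries. Cd59b rests on 34 to 78 reads in db/db and 61 to 73 reads in wild type, which limits this ratio and the comparison of the groups. Within 1 Mb of Cd59a 16 other genes were tested. Without db/db 1 none of them was called higher and 1 was called lower, the polyadenylation factor gene Cstf3 (-0.33, adjusted p = 0.0162). That count is near the share over all genes, of which 4.72% were called higher and 5.84% lower in that fit.

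The promoters of Cd59a, Cd59b and C3 (RefSeq starts on GRCm38.p6, from 250 bases before the start to 50 after it) are printed to set the tandem pair, both with db/db 3, 4 and 5 below every wild-type library, beside C3, whose groups overlapped. Capitals mark matches on either strand to TATAAA, the CCAAT box, the GC box GGGCGG, and TTGCGNAA, a motif of C/EBP factors.
Cd59a, chr2:104095551-104095850, plus strand: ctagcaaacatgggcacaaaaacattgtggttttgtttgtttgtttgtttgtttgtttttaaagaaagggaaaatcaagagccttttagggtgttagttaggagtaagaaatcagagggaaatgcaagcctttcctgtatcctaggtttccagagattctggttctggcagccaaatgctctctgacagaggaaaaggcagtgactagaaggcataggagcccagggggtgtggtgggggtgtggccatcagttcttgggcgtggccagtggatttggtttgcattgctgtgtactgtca
Cd59b, chr2:104070816-104071115, plus strand: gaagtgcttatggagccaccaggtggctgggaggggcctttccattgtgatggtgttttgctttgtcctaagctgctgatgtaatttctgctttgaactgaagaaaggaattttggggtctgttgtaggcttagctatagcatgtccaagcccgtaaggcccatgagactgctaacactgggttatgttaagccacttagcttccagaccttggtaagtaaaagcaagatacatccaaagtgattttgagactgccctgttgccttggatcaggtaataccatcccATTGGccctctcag
C3, chr17:57228087-57228386, minus strand: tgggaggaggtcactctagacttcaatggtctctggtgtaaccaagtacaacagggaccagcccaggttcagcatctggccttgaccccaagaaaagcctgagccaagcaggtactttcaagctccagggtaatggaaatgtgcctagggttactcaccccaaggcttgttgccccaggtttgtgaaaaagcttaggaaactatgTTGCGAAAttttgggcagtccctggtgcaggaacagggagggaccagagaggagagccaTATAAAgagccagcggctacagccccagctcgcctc
No letters of these motifs were found in the Cd59a window. The Cd59b window held 1 CCAAT on the opposite strand, beginning 36 bases after the start, and 37.4% of the 32851 promoters in the table hold that motif. The C3 window held TTGCGNAA 45 bases before the start and TATAAA 14 bases after it, motifs found in 0.798% and 13.6% of all promoters. Cd55 had 2 matches to GGGCGG, a motif in 35.7% of promoters. These matches describe the letters only. Promoters were at hand for 3 of the 7 genes, C3, Cd59a and Cd55.

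In counts, 0 of the 4 complement genes that reached the filter were called with all 9 libraries, and 0 had an unadjusted p under 0.05 by limma or by limma-voom on recovered reads. Of all genes tested 0.233% were called higher and 0.267% lower (0.5% in either direction), and 2810 of the 14588 had an unadjusted p under 0.05. The 9 values of 11.6% of all genes did not overlap between the groups, and those of 0 of the 7 complement genes did not. In the fit with no filter 0 of the 7 were called, beside 0.0254% of all genes. Without db/db 1, 1 of the 4 was lower (Cd59a) and 0 were higher, where 10.6% of all genes were called. The genes that reached the filter are not all 7, and the median over 4 genes is not read further.

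**Figure D3:**
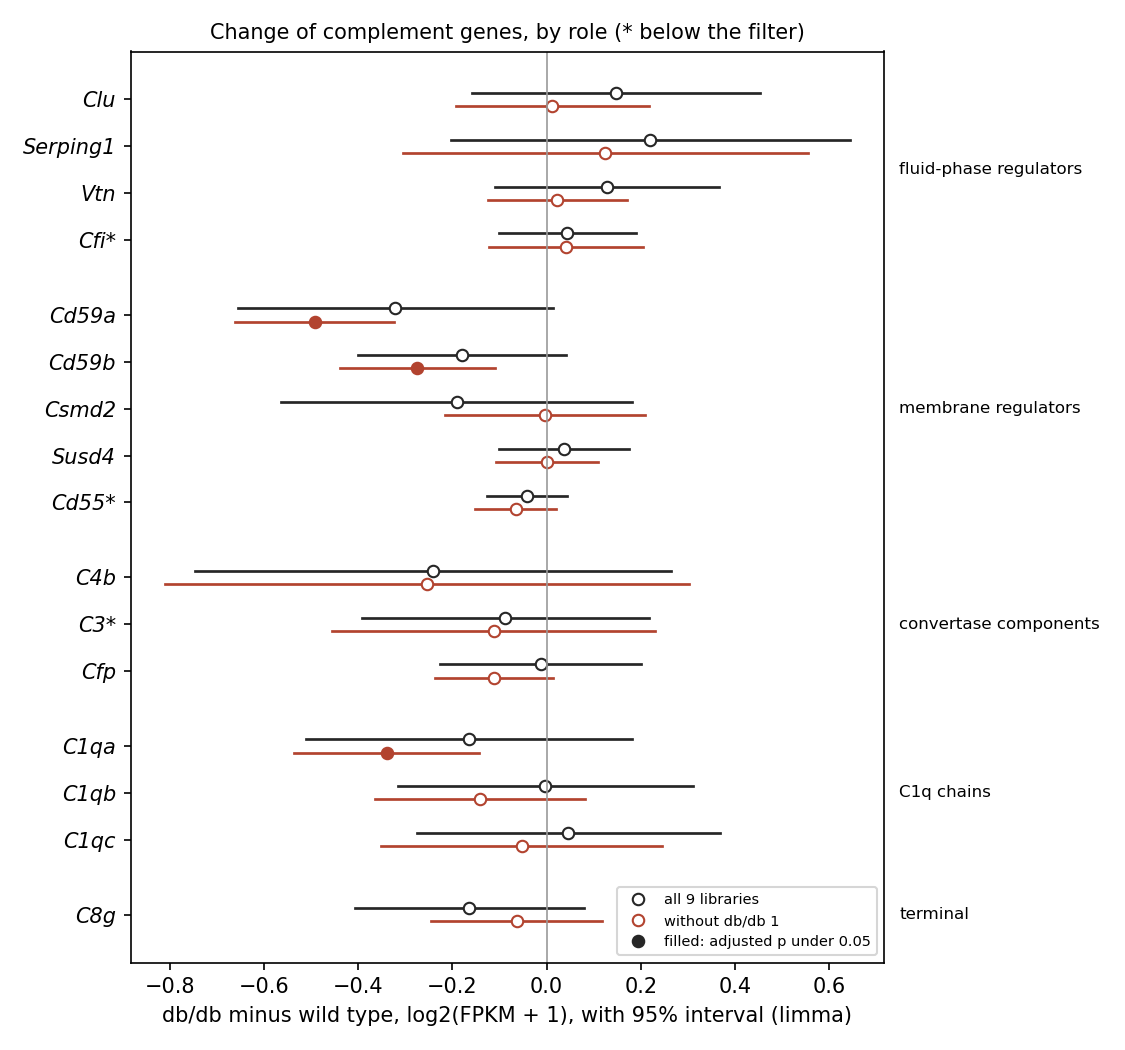
Change of complement genes, db/db minus wild type on log2(FPKM + 1), with 95% intervals from limma, for all 9 libraries (dark) and without db/db 1 (red), grouped by role. For the genes plotted the intervals of all 9 libraries cover 0, and without db/db 1 those of Cd59a, Cd59b and C1qa are filled as called, all lower in db/db.

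The rest of the cascade was read from 57 listed genes, of which 55 were in the table and 14 reached the filter. With all 9 libraries 0 of the 14 were called and 0 had an unadjusted p under 0.05, by limma. Of all 14588 genes tested 0.5% were called and 2810 had an unadjusted p under 0.05. Without db/db 1, 3 were lower (Cd59a, Cd59b and C1qa) and 0 were higher, where 5.84% of all genes were called lower and 4.72% higher. With no filter and db/db 1 left out 1 gene of the wider list passed, Cd59a, where 0.516% of all genes were called lower. The median log2 change of the 14 was -0.0079, and -0.06 without db/db 1, beside 0.0035 and -0.02 over all genes tested.

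Among recognition molecules C1qa, C1qb and C1qc of 8 genes were tested. C1qa, a chain of the molecule that starts the classical route, was read at 4.02, 2.03, 1.96 and 2.31 FPKM in db/db 1, 3, 4 and 5, against 3.66, 2.82, 2.70, 2.81 and 2.70 FPKM in wild type 1 to 5. It showed the Cd59a pattern, with db/db 1 high. The other db/db libraries lay below wild type, as they did in 11.5% of all genes tested. The log2 change of C1qa was -0.17 (adjusted p = 0.573), or -0.34 (adjusted p = 0.0396) without db/db 1. It passed in 2 of 26 alternatives, and among the fits that leave out db/db 1 it did not pass with limma-voom on recovered reads (adjusted p = 0.0645), with no filter (0.107) or without db/db 4 as well (0.109). C1qb and C1qc, the partner chains, had -0.14 (adjusted p = 0.372) and -0.05 (adjusted p = 0.820) without db/db 1 and did not pass; the difference between the chains was not tested. Of the lectin route 0 of 8 genes reached the filter. The lectin gene Colec11 stood at 0.372 ± 0.162 FPKM in db/db (SD, n = 4) and 0.199 ± 0.0644 FPKM in wild type (SD, n = 5), a log2 change of 0.19 (adjusted p = 0.398 without a filter). Without db/db 1 the Colec11 change was 0.12 (adjusted p = 0.428 without a filter). The protease gene Masp2 had -0.18 (adjusted p = 0.343 without a filter). Their unadjusted p, from limma without a filter, was 0.0265 for Masp2 and 0.041 for Colec11. Masp2 shares 1817 exonic bases with Tardbp on the opposite strand.

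C4b and Cfp were the 2 of 7 convertase genes that reached the filter. Cfp, which encodes properdin, the stabiliser of the alternative convertase, was the higher of the pair, at 15.1 ± 2.39 FPKM in db/db (SD, n = 4) and 15.2 ± 0.937 FPKM in wild type (SD, n = 5). Its log2 change was -0.01 (adjusted p = 0.947), or -0.11 (adjusted p = 0.209) without db/db 1, and its sign changed in 4 of 27 alternatives. Of the terminal components, which build the pore, C8g was the single gene above the filter. It stood at 3.23 ± 0.658 FPKM in db/db (SD, n = 4) and 3.70 ± 0.342 FPKM in wild type (SD, n = 5), a log2 change of -0.16 (adjusted p = 0.425).

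Among membrane regulators 4 of 10 were tested, Cd59a, Cd59b, Csmd2 and Susd4. Susd4, a membrane protein with complement control repeats, was the next after Cd59a in level, at 18.4 ± 1.11 FPKM in db/db (SD, n = 4) and 17.9 ± 0.849 FPKM in wild type (SD, n = 5), a log2 change of 0.04 (adjusted p = 0.760). None of the 9 receptors reached the filter. C5ar1, the receptor of C5a, stood at 0.116 ± 0.0768 FPKM in db/db (SD, n = 4) and 0.0436 ± 0.0326 FPKM in wild type (SD, n = 5), a log2 change of 0.10 (adjusted p = 0.449 without a filter). Cr2, the receptor of C3d, had -0.02 (adjusted p = 0.670 without a filter).

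Genes whose log2 levels over the 9 libraries were most like those of each complement gene were listed by Pearson r. The 9 points share the split into groups and the outlying db/db 1, so r is a description only. Cd59a lay closest to Pdia3 (r = 0.928), Pdia6 (0.921) and Mgp (0.919), and Cd59b was the tenth gene in that order (0.903). Pdia3 and Pdia6 encode disulfide isomerases of the endoplasmic reticulum, and Mgp encodes an inhibitor of calcification. Pdia3 stood at 60.1, 37.6, 38.3 and 34.2 FPKM in db/db 1, 3, 4 and 5, against 53.0, 52.9, 54.3, 49.9 and 50.02 FPKM in wild type 1 to 5. It thus repeated the Cd59a picture, with db/db 1 above wild type and the other db/db libraries below, and its log2 change was -0.32 (adjusted p = 0.262), or -0.49 (adjusted p = 0.00538) without db/db 1.

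For Clu the closest genes were Fam207a (r = 0.984), Sh3glb2 (0.981) and Ptgds (0.981), which encodes prostaglandin D synthase. For Serping1 they were the tetraspanin gene Cd151 (0.953), Chil1 (0.944), which encodes a chitinase-like protein, and Ankrd9 (0.943). For C4b they were the adenylate kinase gene Ak3 (0.907), the Hippo kinase gene Lats2 (0.884) and the sulfatase gene Arsk (0.877). None of these 9 genes passed with all 9 libraries or in any of their alternatives.

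**Figure D4:**
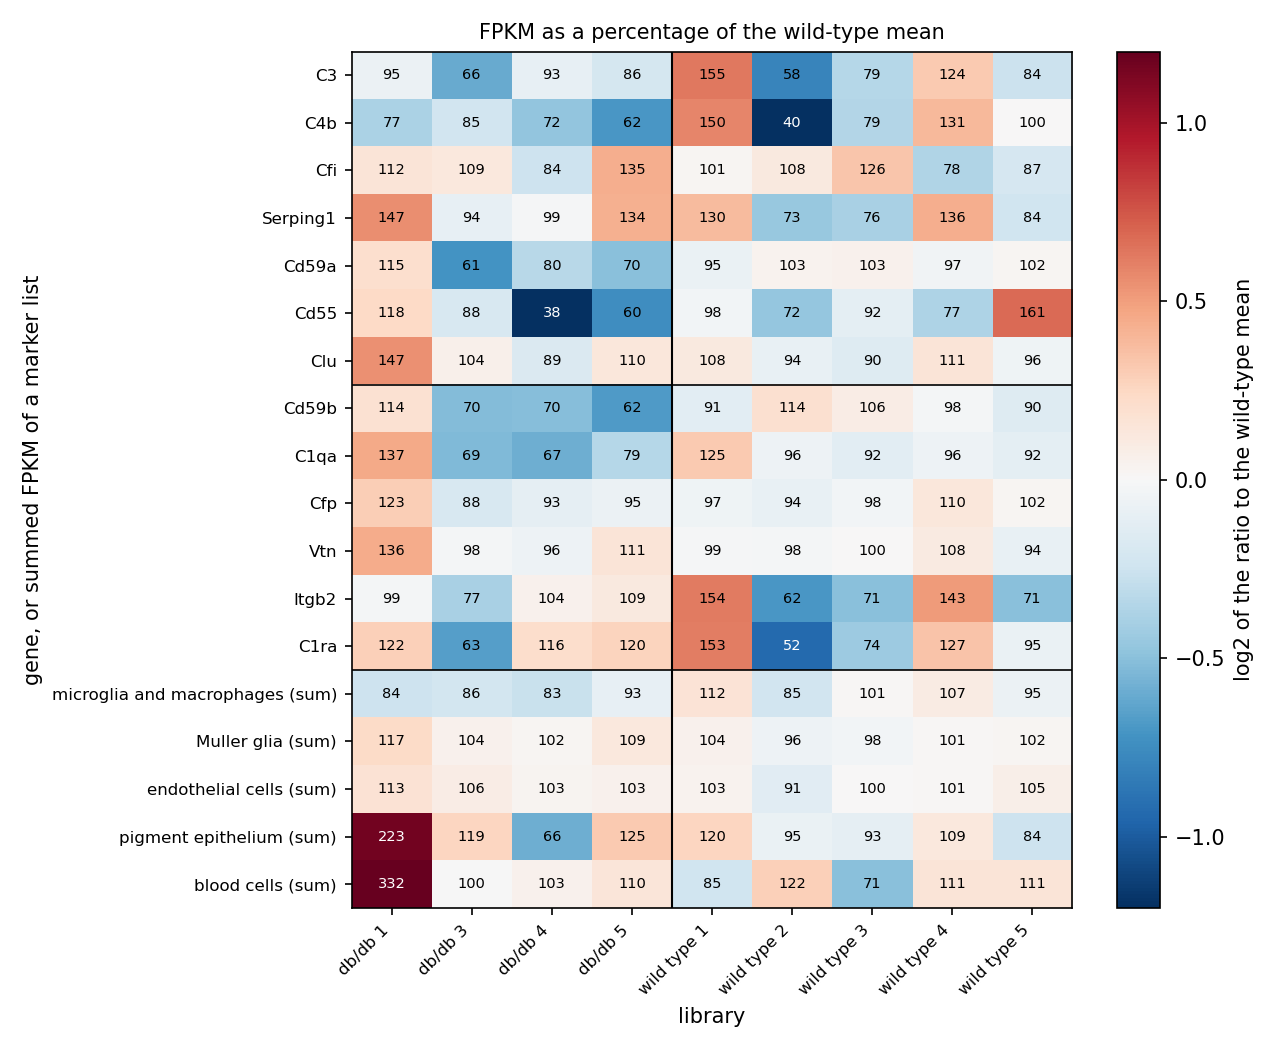
FPKM of complement genes, and summed FPKM of marker lists, as a percentage of the wild-type mean in each library (numbers), coloured by the log2 ratio to that mean; colours stop at 1.2 in either direction, which some cells exceed. Db/db 1 is above 100 for Cd59a (115), Clu (147) and Serping1 (147) and at 332 for blood cells, while db/db 3, 4 and 5 lie at 61, 80 and 70 for Cd59a.

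Set against the wild-type mean, Cd59a was at 115%, 60.9%, 79.6% and 70.5% in db/db 1, 3, 4 and 5. Over the wild-type libraries Cd59a ran from 94.7% to 103%, while C4b ran from 40.3% to 150% and C3 from 57.6% to 155%. The Cd59a spread thus lay in db/db and the spread of C3 and C4b in wild type, as the plot of relative levels shows. Across the 15 marker lists 0 of 99 tested genes were called with all 9 libraries, and without db/db 1 6 were higher and 10 lower, where 4.72% of all genes were called higher and 5.84% lower. Which cells of the retina carried the lower Cd59a was not tested.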

How the data were processed

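RNA was taken from retinas with a Qiagen column kit and made into SMARTER mRNA libraries, per the labels' protocols. The authors deposited FPKM values for 35397 genes in 9 libraries, and the submitters' processing notes name mm10. No aligner, counter, strand setting or annotation is given in the sources used here. Columns named Control or DR were matched by number to wild type or db/db, an inference from the names.

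FPKM times GENCODE M21 exon length (34499 of 35397 identifiers matched) moved in whole reads, which gave 36.6 to 47.9 M reads per library. At least 99.0% of low values were whole within 0.1 read. Of the whole low values 61.3% to 64.4% were even. Whether 1 fragment could give 2 reads was not tested, so the read numbers may exceed the numbers of fragments. The 14588 genes whose mean reached 1 FPKM were tested as log2(FPKM + 1), so that changes of low genes are understated. The fit was limma 3.58.1 in R 4.3.3 with an intensity trend, no covariate and Benjamini-Hochberg adjustment at 0.05. Steps were tested on simulated data. Figures used matplotlib 3.10.9 in Python 3.11.15.

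The 7 genes and all lists were chosen with earlier results of these data known. Named besides them were 3 paralogs, from each complement list the genes past the threshold with or without db/db 1 or otherwise the 2 lowest p, and for each tested gene the 3 most correlated ones. C1qb, C1qc, C1ra, Itgb2, Susd4, Csmd2, Tardbp and Cstf3 were added after their values were seen. Some of the listed genes are not reported here. The 27 alternatives changed the pseudocount (0.1), filter, variance model, scaling, GC content (20 bins), block, weights and libraries. Counting intervals are not given, and the spread between libraries is the error used.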

Additional observations from a re-analysis of the deposited data

Results flagged for a closer look

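In 19 genes the highest and lowest libraries of each group were checked with Dixon's ratio, the gap to the nearest value over the group's range, at its 95% limit. Chance flags about 1 in 20 groups. Cd55 stood out in wild type 5 at 0.212 FPKM, with the next wild-type value at 0.129 FPKM (ratio 0.714). Cd59b stood out in db/db 1 at 1.30 FPKM, with the next db/db value at 0.804 FPKM (ratio 0.848). C1qa stood out in db/db 1 at 4.02 FPKM (ratio 0.830), and in wild type 1 at 3.66 FPKM (ratio 0.876). Cd59a in db/db 1, at 31.2 FPKM, was not past the limit.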

How the results depend on the processing

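The direction of C4b, Serping1 and Cd59a was the same under every alternative run, while Clu turned to -0.06 in the GC-corrected fit without db/db 1. Of the complement genes 0 passed as reported, and 1 passed, Cd59a, with array weights, without db/db 1 and db/db 4, in the GC-corrected fit without db/db 1, and, in settings chosen after seeing the data, with limma-voom or no filter and db/db 1 left out; leaving out 1 library at a time gave 0 to 1. In the wider list 0 passed as reported, 2 in the GC-corrected fit without db/db 1, 1 in the other 4 of these settings, and 0 to 3 with 1 library left out at a time (3 without db/db 1). Those 3 include Cd59b, which reached the filter through wild type. Over all genes 73 were called as reported. The count was 6 after correction for GC content, 715 with db/db 1 left out too, 1206 with array weights, 30 with a filter at 5 FPKM, and 9 with no filter (414 with db/db 1 left out as well). It was 110 with limma-voom on recovered reads (1987 with db/db 1 left out), 36 with equal sums, 543 without db/db 1 and db/db 4, and 4 to 1540 with 1 library left out at a time, the highest without db/db 1. With the replicate block 2 genes were called, and 0 with the block and the GC correction. The block called none of the complement genes (Cd59a -0.31, adjusted p = 0.513). Samples with the same number did not deviate together (r = 0.0434, 0.0455, -0.180 and 0.134 for numbers 1, 3, 4 and 5), and of the db/db libraries db/db 5 alone correlated best with its own number, so the numbers were not taken to pair the samples. The causes were not tested. Scaling to equal sums put 58.3% of calls higher in db/db, against 46.6% as reported. Cfi rests on 35 to 58 reads a library, Cd55 on 10 to 47 and Cd59b on 34 to 78, which limits what could be detected for them.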
